A study of Caenorhabditis elegans with 3 samples.

Results

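Chromosome X carried 260 of the 1000 regions of highest signal in a map of MML-1 binding in Caenorhabditis elegans larvae, and these 260 regions are described here against the 740 autosomal regions of the same 1000. They were chosen by the authors' own signal value in the pooled ChIP-seq list of 30000 regions and by lying on X, so their signal, their number and their rank are a description and were not tested. The assay was chromatin immunoprecipitation and sequencing against tagged MML-1 in whole L3 larvae of strain OP198, genotype unc-119(ed3) III; wgIs198, in 3 biological replicates. The sex is labelled as males and females pooled, though the sexes of this worm are hermaphrodites and males. The lists give no share of males. All 3 samples carry the same integrated transgene, which the labels describe both as eGFP-mml-1 and as MML-1 with a C-terminal GFP-FLAG tag, and there is no second condition, dose or genotype. Replicates 1 and 2 are labelled with a stock centre as source and replicate 3 with the submitting laboratory, and replicate 3 alone is labelled as sonicated. Whole animals mix tissues, the sexes are not told apart, and the tagged copy is added to the genome. A region can therefore not be assigned to a tissue, to a sex or to the endogenous protein. How deeply each library was sequenced is unknown, since read totals are not part of the lists.

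MML-1 belongs to the Mondo family of basic helix-loop-helix leucine zipper proteins, which bind DNA as a pair with a Max-like partner, MXL-2 in the worm. The family's canonical binding site is the palindromic E-box CACGTG, and Mondo proteins are known for control of sugar and lipid metabolism, autophagy and lifespan. Chromosome X is present in 2 copies in hermaphrodites and 1 in males. A dosage compensation complex lowers transcription from both X copies in hermaphrodites, and it is loaded at recruitment sites whose motif has the core GCGCAGGG. Tissue genes for metabolism, muscle and neurons are common on X, while genes active in the germline are few.

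The sequences that carry the strongest X regions are shown first. They are the CACGTG nearest to the summit in the 10 highest regions of X that hold one and in the regions nearest to mxl-3 that hold one, each with 15 bases on either side, in capitals for the E-box. All are on the + strand of the WBcel235 assembly (ce11), 5′ to 3′, and each line gives the nearest protein-coding gene and the rank in the pooled list.
mdl-1, rank 2, chrX:6742211-6742246: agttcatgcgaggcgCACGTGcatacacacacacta
mdl-1, in abts-4, rank 7, chrX:6750264-6750299: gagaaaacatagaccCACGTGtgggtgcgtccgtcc
R03E9.2, rank 12, chrX:6737732-6737767: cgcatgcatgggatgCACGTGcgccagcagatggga
mans-3, rank 14, chrX:5165163-5165198: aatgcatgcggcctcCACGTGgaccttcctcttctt
mdl-1, rank 16, chrX:6744022-6744057: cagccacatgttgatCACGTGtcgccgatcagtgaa
R07E3.4, rank 17, chrX:10332498-10332533: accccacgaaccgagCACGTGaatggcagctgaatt
acl-12, rank 18, chrX:7446635-7446670: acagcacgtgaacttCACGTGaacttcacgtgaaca
H18N23.2, rank 20, chrX:17640985-17641020: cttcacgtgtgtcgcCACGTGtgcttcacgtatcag
C49F8.15, rank 21, chrX:13358779-13358814: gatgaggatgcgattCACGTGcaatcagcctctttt
H18N23.2, rank 24, chrX:17633316-17633351: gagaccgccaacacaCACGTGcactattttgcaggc
mxl-3, rank 32, chrX:13353628-13353663: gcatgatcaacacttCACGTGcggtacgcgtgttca
mxl-3, rank 220, chrX:13351453-13351488: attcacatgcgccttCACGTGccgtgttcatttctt
The region near acl-12 holds 3 copies of the E-box, which are all visible in the printed stretch, and no other member on X held 3. The promoter region of H18N23.2 at rank 20 holds 2 copies. In the mdl-1 region at rank 16 and the mxl-3 region at rank 220 the related hexamer CACATG stands just before the E-box.

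A further set is shown because it carries a sequence difference between X and the autosomes that is described below. In these lines the capitals mark GCGCAGGG, the core of the recruitment motif, in 5 of the 6 members on X that hold it.
nspc-17, rank 125, chrX:14525885-14525922, minus strand: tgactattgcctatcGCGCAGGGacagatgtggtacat
C41A3.2, in pks-1, rank 159, chrX:5429575-5429612, plus strand: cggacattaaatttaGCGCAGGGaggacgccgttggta
cest-16, in mom-1, rank 234, chrX:6296561-6296598, plus strand: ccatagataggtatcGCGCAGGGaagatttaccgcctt
egl-17, rank 262, chrX:489993-490030, plus strand: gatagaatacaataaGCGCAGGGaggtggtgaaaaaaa
xol-1, rank 485, chrX:8036386-8036423, minus strand: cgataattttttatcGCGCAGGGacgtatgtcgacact

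The share of regions on X was highest at the top of the list and fell toward the share of the whole list. X held 9 of the first 20 regions, 19 of the first 50, 31 of the first 100, 141 of the first 500 and 260 of the first 1000, or 26% (95% exact Clopper-Pearson interval 23.3 to 28.8). The whole pooled list had 6349 of its 30000 regions on X, or 21.2%, and X makes up 17.7% of the genome's length. The density of first 1000 regions was 14.7 per Mb on X and 7.50 to 10.4 per Mb on the other chromosomes, lowest on V and highest on I. The median signal of the X regions was 18.3 and that of the autosomal regions 17.7, on the authors' scale. The last member inside the first 1000, at rank 1000 and chrX:3776209-3776492, had a signal of 15.0035. The next X region outside, at rank 1002 in an intron at chrX:3823084-3823367, had 14.9907, so nothing in the signal separates members from their nearest neighbours below.

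The members were spread along the whole of X and were sparse at its left end. The first Mb held 2 members, or 0.939% of its pooled regions, and the next 3 Mb held 5, 5 and 10. The seventh Mb held 34 members, or 7.39% of its pooled regions, and the fourteenth held 30, or 7.28%. These Mb contain the mdl-1 and mxl-3 loci, which accounted for 17 and 9 of their members. The median gap between neighbouring summits was 30626 bp, and the largest was 774324 bp, near the left end. At the other extreme, 25 of the 259 neighbouring pairs had summits under 1000 bp apart.

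**Figure D1:**
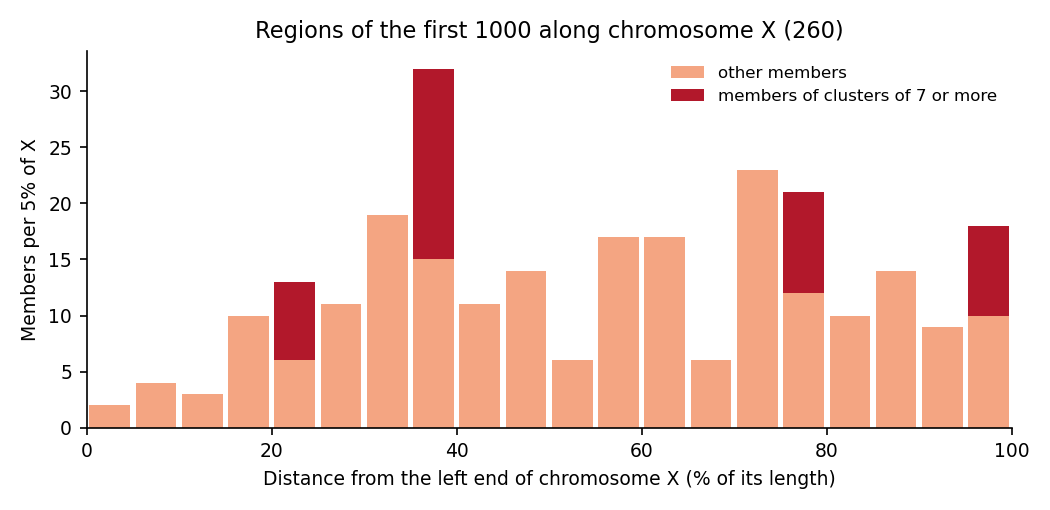
Number of members in each 5% of chromosome X (bars), against the distance from its left end as a percent of its length; dark parts of bars are members of the 4 clusters of 7 or more regions. The first 3 bars hold 2, 4 and 3 members and the highest holds 32, of which 17 belong to the mdl-1 cluster.

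Members of X lay close to one another more often than autosomal ones did. With summits no more than 10 kb from the next joined, X had 170 clusters, of which 125 were single regions, 31 held 2, 8 held 3, 2 held 4 and 4 held 7 or more. In all 135 of 260 members, or 51.9%, had a neighbour in their cluster, against 290 of 740, or 39.2%, on the autosomes. The largest cluster was of 17 regions on X and of 8 on the autosomes. These are positions of the members, which are denser on X, and the difference was not tested. CACGTG was in 19 of the 41 members of the clusters of 7 or more (46.3%) and in 41 of the 219 other members on X (18.7%).

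The cluster at mdl-1, which encodes a Mad-like basic helix-loop-helix protein, spanned 15.975 kb and reached into abts-4, a gene of the anion transporter family. Its signals ran from 620.8 at the leading promoter region down to 21.7, 10 of its 17 regions held CACGTG, and 9 ranked among the first 1000 of all 3 replicates. The leading region lay 132 bp upstream of the mdl-1 start and ranked 2, 3 and 1 in replicates 1, 2 and 3. Its regions at ranks 116 and 295 matched 1 and the same region in each replicate list, so they are not separate in the replicates.

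The cluster at mxl-3, a Max-like gene known in the worm for control of lysosomal fat breakdown in fed animals, had 9 regions in 10.4 kb and ended inside the neighbouring gene C49F8.15. Its leading region, at rank 21 and chrX:13358683-13358854, ranked 22, 42 and 15 in replicates 1, 2 and 3, and 4 of its regions held CACGTG. The region at rank 32 lay 2852 bp upstream of mxl-3 and ranked 43, 31 and 20.

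Outside the Max network the most crowded locus was H18N23.2 near the right end of X, with 8 regions in 14.5 kb that lay at its promoters and in its introns. Its leading region at chrX:17640916-17641091, 133 bp upstream of a transcript start, had a signal of 147.9 and ranked 15, 27 and 29 in replicates 1, 2 and 3. A further region 5114 bp upstream of the nearest start, in an intron, ranked 24 in the pooled list and 31, 38 and 14 in the replicates. Both hold CACGTG in 2 copies and are high in every replicate. The other regions of the locus were weaker, with pooled ranks of 128 to 800, and 1 of them held CACGTG.

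The remaining large clusters had lower or less even signal. At ZK470.2, ZK470.4 and the adaptor protein gene nck-1, 7 regions spanned 15.2 kb, and the highest, at rank 82 with CACGTG, ranked 87 and 41 in replicates 1 and 2 and 7611 in replicate 3. At sma-9, which encodes a zinc finger protein of the body-size TGF-beta pathway, 4 regions spanned 6.46 kb, and the highest, at rank 217 with CACGTG, ranked 83, 22541 and 5801. The regions of sma-9 are therefore high in no more than 1 or 2 replicates each, and none ranked among the first 1000 in all 3. The cluster of 4 regions between pdi-2, a protein disulfide isomerase gene, and the nuclear hormone receptor gene nhr-35 held no CACGTG. Its leading region at chrX:4530487-4530696, intergenic and 2097 bp upstream of nhr-35, was the highest member of X without the E-box, with a signal of 271.3. It ranked 6 and 4 in replicates 1 and 2 and 783 in replicate 3, so replicate 3 stands apart there.

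**Figure D2:**
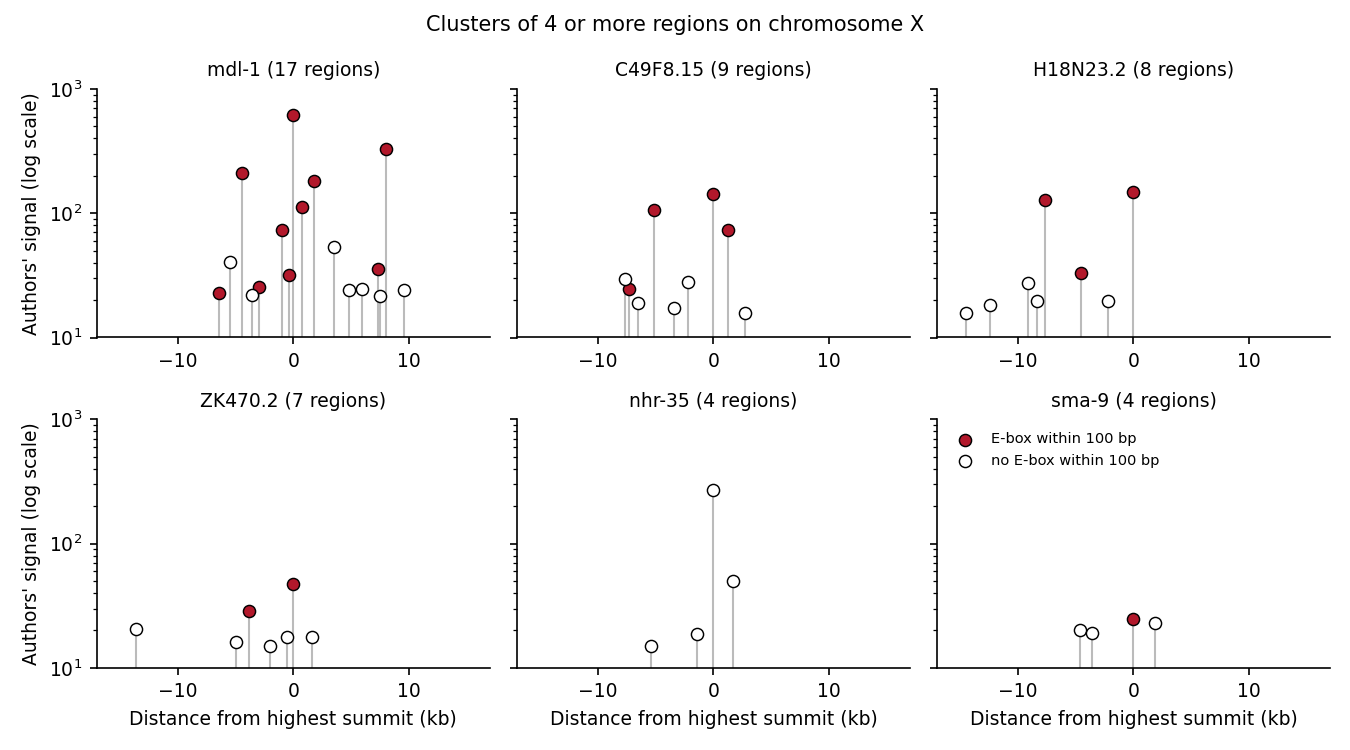
Signal of each region (authors' value, log scale) against its distance in kb from the highest summit of its cluster, for the 6 clusters of 4 or more regions on X, named by the gene nearest to the highest summit; the panel named C49F8.15 is the mxl-3 locus. Filled points hold the canonical E-box within 100 bp of the summit, and the nhr-35 cluster has none.

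Single strong regions lay at genes of several kinds. The gene mans-3, of the alpha-mannosidase family, had a promoter region 222 bp upstream at chrX:5165087-5165280 that ranked 12, 12 and 24 in replicates 1, 2 and 3. R07E3.4 had regions 620 bp and 197 bp upstream of a start, with signals of 169.8 and 101.1, and the pair ranked between 13 and 52 in every replicate. The intergenic region with 3 E-boxes, at chrX:7446546-7446756, lay 4078 bp upstream of acl-12, a gene of the acyltransferase family. It ranked 16 and 11 in replicates 1 and 2 and 143 in replicate 3. The sodium-proton exchanger gene nhx-4 had a region 974 bp upstream of a start, which ranked 27, 17 and 64.

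A further 5 regions held CACGTG and ranked among the first 500 of every replicate. The region at epg-7, which encodes an autophagy scaffold protein, lay 140 bp upstream of the start at chrX:7334432-7334715, with its summit almost on the E-box, and ranked 34, 43 and 44. A region in an intron of atf-4, a bZIP factor of the integrated stress response, ranked 38, 57 and 113. The mitochondrial sirtuin gene sir-2.2 had a region 198 bp upstream that ranked 234, 69 and 25. In an intron of aak-2, a gene for the catalytic part of the energy sensor AMPK, a region 918 bp downstream of a start ranked 61, 462 and 47. In an intron of atg-2, a gene for lipid transfer to growing autophagosomes, a region 804 bp downstream of a start ranked 165, 101 and 171. Of these genes aak-2 and atg-2 are named from the gene lists, and epg-7, atf-4 and sir-2.2 are on no list and are named from the 20 highest X regions.

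Over the whole set, 193 protein-coding genes were nearest to a member, 159 of them to 1 member, 23 to 2 and 11 to 3 or more. Promoter windows, taken from 1000 bp upstream to 200 bp downstream of any protein-coding transcript start, held 102 members and belonged to 96 genes. X has 2731 protein-coding genes, and 1296 of them had a pooled region in the window, so a member lay in the window of 7.41% of those.

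Gene lists were read against that background, so each count below is of the X-linked genes of a list that had any pooled region in the window. For the network around Myc, Mondo and Max, 2 of 2 such genes had a member in the window, mdl-1 and mxl-3. Of 13 such nuclear hormone receptor genes, among 27 on X, 4 had a member, nhr-35, nhr-32, nhr-255 and nhr-48, at best pooled ranks of 10, 198, 238 and 310. A further 4, nhr-17, nhr-3, nhr-25 and odr-7, were nearest to a member that lay outside their window. The nhr-32 region at rank 198 lay 394 bp upstream and held CACGTG, but ranked 125 and 133 in replicates 1 and 3 and 22038 in replicate 2. The nhr-48 promoter region ranked among the first 1000 of no replicate.

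The metabolic lists had few X-linked genes to count. Of the glycolysis list 1 gene of 3 on X had a pooled region in the window, gpd-2, a glyceraldehyde-3-phosphate dehydrogenase gene. It had a member there at rank 490, which ranked 10846, 4623 and 15315 in the replicates and lacked CACGTG. The summit of that member lay inside another gene, mai-1, and in an untranslated region. Of the list of trehalose, glycogen and the pentose phosphate pathway 1 gene of 3 on X had a pooled region in the window, and it had no member. Of 4 genes of insulin, AMPK and TOR signalling with a pooled region in the window aak-2 had a member there, and of 3 autophagy and lysosome genes atg-2 did. The autophagy list does not include epg-7. The single X-linked gene of the fatty acid list, acl-12, had its member outside the window. Outside the lists, and named after its values were seen, the ATP citrate lyase gene acly-1, which supplies acetyl-CoA for fat synthesis, was nearest to 2 members at ranks 65 and 397. Both held CACGTG, and the higher ranked 52 and 56 in replicates 1 and 3 with no match within 200 bp in replicate 2.

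Of 4 heat shock genes with a pooled region in the window hsp-3, for an endoplasmic reticulum chaperone of the BiP type, had a member 10 bp upstream of its start at rank 163, which ranked 11904, 149 and 410. On the same count, tissue lists gave 1 of 3 muscle genes, dim-1 at rank 451, and 0 of 3 intestine genes, 0 of 1 pharynx gene and 0 of 14 hypodermis and cuticle genes, with col-181 and nhr-25 nearest to a member outside it. Among 21 ion channel and transmitter receptor genes twk-17, a potassium channel gene, had a member in the window, and ser-2 and lgc-21 were nearest to one. A member in the window was found for 0 of 17 neuropeptide genes, 0 of 15 homeobox genes, 0 of 4 dosage compensation and sex determination genes and 0 of 1 Wnt and semaphorin gene. Outside the window nlp-76, flp-3, ceh-39 and xol-1 of these lists were nearest to a member, and the short neuron and germline lists had no gene on X. The counts are too small to read a lack of binding from a 0, and the whole-larva samples do not show in which tissue any region was bound.

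Sequences of 4 kinds were searched on both strands within 100 bp of each summit, with the share over all 30000 pooled regions as the background. CACGTG was in 60 of the 260 X members, or 23.1% (18.1 to 28.7), and in 172 of the 740 autosomal regions, or 23.2% (20.2 to 26.5), against 4.67% of all pooled regions. The odds ratio was 0.991 (interval 0.695 to 1.40), and the shares did not differ beyond counting error (adjusted p = 1 over 7 shares by a two-sided Fisher's exact test). The interval leaves room for an odds ratio of 0.695 in one direction and 1.40 in the other. The background itself differed, since 3.25% of other pooled regions on X and 4.23% on the autosomes held CACGTG. The word is also rarer on X, at 139 copies per Mb against 185 on the autosomes. CACATG was in 20% of X members and 18.1% of autosomal ones, against 7.97% of all pooled regions (Fisher's exact test, adjusted p = 0.780). The units of these tests are regions, many of them neighbours at 1 locus, so their p-values do not cover the spread between animals.

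GA repeats were less frequent in the X members than in the autosomal regions. GAGAGAGA was in 12 of 260 members, or 4.62% (2.41 to 7.92), and in 85 of 740 autosomal regions, or 11.5% (9.28 to 14.01), against 2.61% of all pooled regions. The odds ratio was 0.373 (0.182 to 0.702; adjusted p = 0.00638, two-sided Fisher's exact test). The same order held outside the first 1000, where 1.54% of X and 2.59% of autosomal regions held it. In the genome the word had 159 copies per Mb on X and 174 on the autosomes. In the replicates' own first 1000 regions the share on X was 5.02%, 3.89% and 7.21% in replicates 1, 2 and 3, and on the autosomes it was 8.10%, 5.52% and 8.10%. The X share was the lower in each replicate, by less than in the pooled list. Without replicate 3, with regions re-sorted by mean rank in the other lists, the difference was -3.56 percentage points. It missed the threshold (adjusted p = 0.172 by Fisher's exact test). With 1 region per cluster it was -6.06 points and also missed it (adjusted p = 0.0669 by the same exact test).

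GCGCAGGG showed the opposite order, on few regions. It was in 6 of 260 X members, or 2.31% (0.851 to 4.95), and in 3 of 740 autosomal regions, or 0.405% (0.0837 to 1.18), against 0.12% of all pooled regions. The odds ratio was 5.80 (1.23 to 36.04; adjusted p = 0.0416, two-sided Fisher's exact test). The difference was 1.90 percentage points in the order of pooled signal. Leaving out replicate 1, 2 or 3 gave 0.879, 1.103 and 1.57, and none passed (adjusted p = 0.268, 0.158 and 0.172 by Fisher's exact test). Those sets were re-sorted by mean rank in the other lists, so the ordering changed together with the replicate. In the first 1000 regions of replicates 1, 2 and 3 themselves, GCGCAGGG was in 5 of 259, 4 of 257 and 3 of 222 on X. On the autosomes it was in 2 of 741, 1 of 743 and 1 of 778. The X share was the higher in each replicate, on few regions, and this was not tested. The word itself is denser on X, with 81 copies or 4.57 per Mb against 233 copies or 2.82 per Mb on the autosomes. Among other pooled regions it was in 0.0985% on X and 0.0917% on the autosomes.

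The 6 regions lay in different settings. The region at nspc-17, a nematode-specific peptide gene, was 745 bp upstream of the start and ranked 157, 566 and 293 in replicates 1, 2 and 3. The region between R04E5.9 and cnnm-2, a gene of a magnesium transporter family, ranked 226, 478 and 177 and also held CACGTG. These 2 ranked among the first 1000 of all 3 replicates. The region in an exon of the polyketide synthase gene pks-1 ranked 81, 3613 and 3871. The region in an intron of mom-1, a Porcupine homologue needed for Wnt secretion, ranked 233 in replicate 1 and 439 in replicate 3, with no match in replicate 2. The region at the promoter of the fibroblast growth factor gene egl-17 ranked 6467, 631 and 25448, and a tRNA gene lies within 200 bp of it. The region 4909 bp upstream of xol-1, the switch gene of male fate and dosage compensation, ranked 241, 3363 and 12563 and has the core within 0.5 bp of its summit. The last 4 are therefore high in 1 or 2 replicates and low or unmatched in another.

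The bases beside the core, looked at after the values were seen, also differed in the sites counted. Of the 8 copies in the 6 X regions 7 were followed by A and 4 were preceded by TC, as in the printed sequences at nspc-17, cest-16 and xol-1. In the other X regions 4 of 6 copies were followed by A and 3 preceded by TC. On the autosomes 0 of 3 copies in the first 1000 and 0 of 23 in other regions were preceded by TC, and 1 and 4 of them were followed by A. These bases were not tested.

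With the promoter window given above, position relative to genes in the first 1000 did not differ between X and the autosomes beyond counting error. Of the X members 39.2% (33.3 to 45.5) lay in promoter windows and of the autosomal regions 43.5% (39.9 to 47.2), against 29.4% of all pooled regions (odds ratio 0.838, interval 0.621 to 1.13; Fisher's exact test, adjusted p = 0.568). With the wider window of 2000 bp upstream to 500 bp downstream the shares were 50.4% and 61.6%, which passed (Fisher's exact test, adjusted p = 0.00579). Introns held 21.2% and 20%, against 22.5% of all pooled regions (Fisher's exact test, adjusted p = 0.840). Intergenic sequence held 25.8% and 23.9%, against 19.7% of all pooled regions (Fisher's exact test, adjusted p = 0.780). Without replicate 2, with regions re-sorted by mean rank in the other lists, the intergenic share was 30.6% on X and 22.3% on the autosomes. That difference passed (Fisher's exact test, adjusted p = 0.0350). Among regions outside the first 1000, 25.6% of X and 17.9% of autosomal summits were intergenic.

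**Figure D3:**
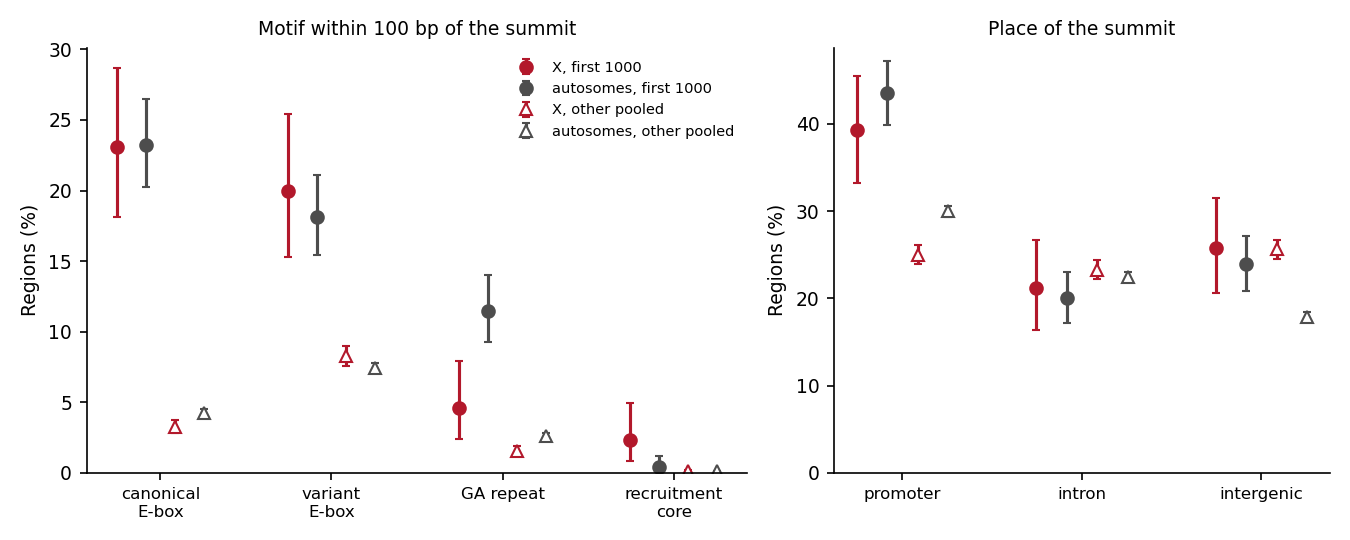
Percent of regions with each sequence within 100 bp of the summit (left) and with the summit in each kind of position (right), on X and on the autosomes, for the first 1000 (circles) and the other pooled regions (triangles); bars are 95% exact intervals for the number of regions. The variant E-box is CACATG, the GA repeat GAGAGAGA and the recruitment core GCGCAGGG; X and autosomal circles overlap closely for the canonical E-box and stand apart for the GA repeat, at 4.62% and 11.5%.

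A fit over all 30000 regions asked whether the step from the rest of the list to the first 1000 differed between X and the autosomes. For CACGTG the odds ratio of first 1000 against other regions was 8.93 on X and 6.85 on the autosomes, a ratio of 1.30 (0.901 to 1.89), which did not pass the likelihood ratio test of a logistic regression, with an adjusted p of 0.286. For GAGAGAGA the ratio was 0.632 (0.327 to 1.22), with an adjusted p of 0.286 in the same fit, so the lower share on X was not shown to be specific to the first 1000. For GCGCAGGG it was 5.40 (1.02 to 28.5) and for intergenic position 0.700 (0.502 to 0.975), both with an adjusted p of 0.135 in the same fit. The ratio was 1.00 for CACATG, 1.08 for promoter position and 1.02 for intron position. None of the 7 passed after adjustment.

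Within X the E-box followed signal and replicate support. It was in 24 of 31 members at ranks 1 to 100 (77.4%), in 7 of 23 at ranks 101 to 195 (30.4%), in 18 of 87 at ranks 196 to 500 (20.7%) and in 11 of the rest, at ranks 501 to 1000 (9.24%). The autosomal shares were 62.3%, 58.3%, 24.8% and 8.66%. X thus stood above the autosomes in the first band and below in the second, bands that were drawn after the ranks were known and were not tested. The nearest E-box lay at a median of 13.5 bp from the summit on X and 18.5 bp on the autosomes, and 38 of the 60 members had it within 25 bp. By position, CACGTG was in 25 of 102 promoter members (24.5%), 16 of 55 intron members (29.1%), 15 of 67 intergenic members (22.4%) and 4 of 36 in exons or non-coding genes (11.1%). Bases next to the E-box were T in 40.8% of 120 flanks on X and 47.1% of 344 flanks on the autosomes.

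The members' ranks in the 3 replicate lists are not independent of their choice, since the pooled list was called on the same replicates, and are given as a description. A region was matched where a replicate summit lay within 200 bp. Of 260 members 91.2% were matched in replicate 1, 81.5% in replicate 2 and 72.3% in replicate 3, at median ranks of 834, 1686 and 1036.5. They were among the first 1000 in 48.5%, 34.6% and 35.8%, against 44.7%, 28.9% and 35.5% of the autosomal regions. In all 3 replicates 38 members, or 14.6%, ranked among the first 1000, where 0.4% of all pooled regions and 10.7% of the autosomal ones did. A further 45 did so in 2 replicates, 105 in 1 and 72 in none. CACGTG was in 65.8% of the 38, 26.7% of the 45, 16.19% of the 105 and 8.33% of the 72. The autosomal shares at the same support were 64.6%, 41.1%, 15.7% and 8.68%, and the differences were not tested.

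**Figure D4:**
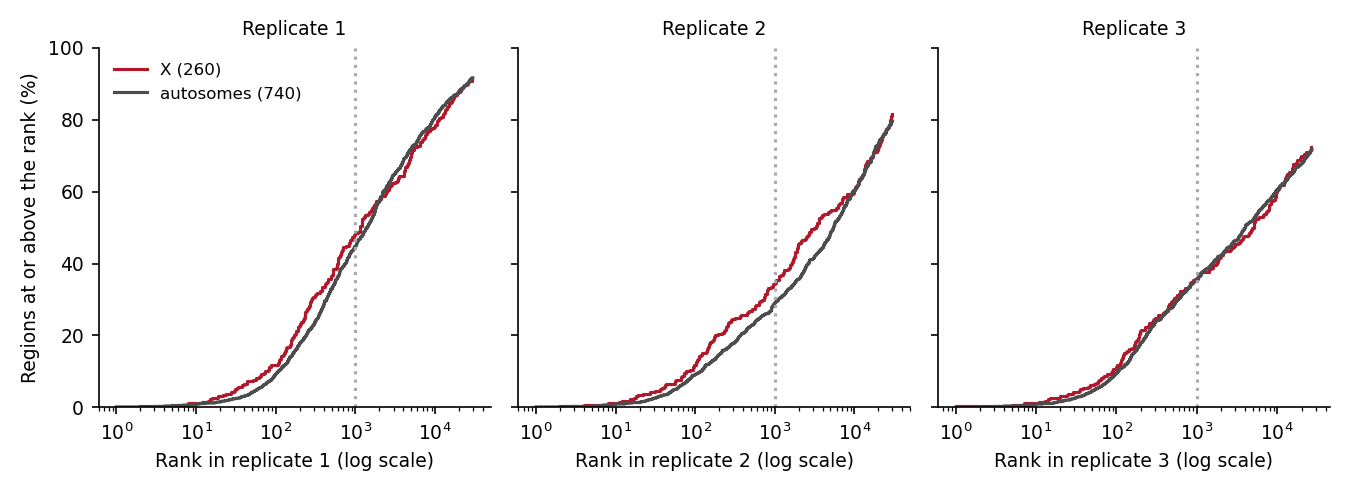
Percent of the 260 X members (red) and 740 autosomal regions (grey) whose matched region lies at or above each rank (log scale) in replicates 1, 2 and 3; the dotted line marks rank 1000 and a curve ends below 100 where regions had no match. At rank 1000 the X curves stand at 48.5%, 34.6% and 35.8%.

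**Figure D5:**
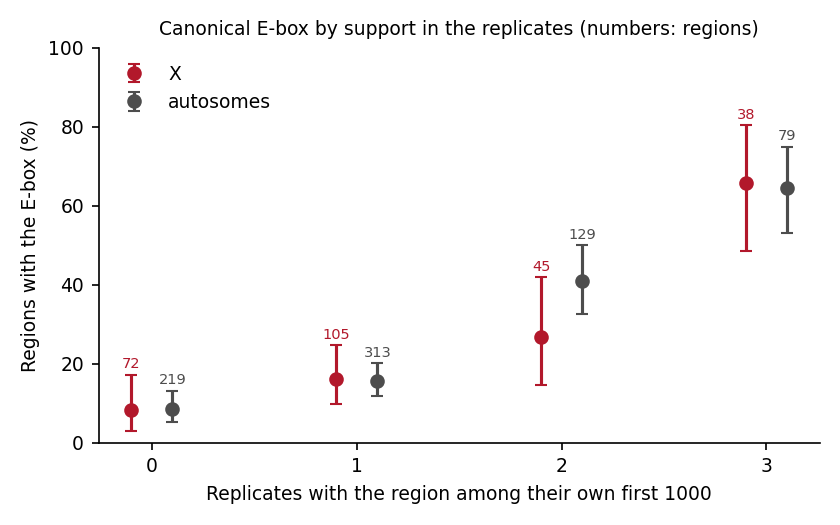
Percent of regions that hold the canonical E-box, by the number of replicates in whose own first 1000 they rank, on X (red) and on the autosomes (grey); bars are 95% exact intervals for the number of regions, printed above them. On X the share goes from 8.33% with no replicate to 65.8% with all 3.

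Taken as lists of their own, the first 1000 regions of replicates 1, 2 and 3 had 259, 257 and 222 on X, or 24.6% ± 2.08 (SD, n = 3), of 20.5% ± 0.667 (SD, n = 3) in the whole lists. CACGTG was in 18.5%, 14.8% and 23.9% of those on X and in 17.1%, 12.2% and 21.2% of those on the autosomes. The share was higher on X in 3 of 3 replicates, by 2.20 ± 0.700 percentage points (SD, n = 3; exact two-sided sign-flip test, p = 0.25, the smallest that 3 replicates allow). The pooled list does not show this order, since its shares were 23.1% and 23.2%.

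A set of members without the E-box lay beside tRNA genes, a pattern noticed in these values and not tested. On X 27 of 260 members, or 10.4%, had a tRNA gene within 200 bp of the summit, against 17 of 740, or 2.30%, on the autosomes. Of the other pooled regions 1.08% on X and 0.367% on the autosomes had a tRNA gene that near. The annotation has 276 tRNA genes on X and 358 on the autosomes. None of the 27 held CACGTG, and 2 of the 17 autosomal ones did. The highest, at rank 81 and chrX:3035941-3036224, lay beside 2 tRNA genes near M02F4.2 and ranked 65, 77 and 250 in the replicates. The next, at rank 104 near C53C7.3, ranked 72 in replicate 1 and 103 in replicate 2, with no match in replicate 3.

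The tRNA regions stood unevenly across the replicates. Of the 27, 18 were among the first 1000 of replicate 1, 14 of replicate 2 and 1 of replicate 3, and 17 had no match in replicate 3. The 17 autosomal ones were uneven too, with 10, 4 and 0 among the first 1000 of replicates 1, 2 and 3. Of these 7 had no match in replicate 3. In the replicates' own first 1000 regions on X, 11.6%, 6.23% and 1.35% lay beside a tRNA gene, and on the autosomes 2.02%, 0.538% and 0.386%. Fragmentation and source labels differ between replicate 3 and the other 2, and their part in this was not tested. The members nearest to nhr-255, egl-17, ser-2, col-181, nlp-76, lgc-21 and odr-7 are of this kind, so the gene named for each is the nearest protein-coding one, and a tRNA gene lies within 200 bp of the summit.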

How the data were processed

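For each of 3 replicates, and for a pooled list of peaks and background, the authors deposited regions with a signal value. For the aligner, the peak caller and the scale of the signal, the step is not given in the sources used here. Signal served to order regions inside 1 list. Coordinates are 1-based in ce11 and were read with the WBcel235 genome from NCBI and the Ensembl 115 annotation. No region ends past its chromosome. Shares were compared by Fisher's exact test with Benjamini-Hochberg adjustment over 7 shares, with 95% Clopper-Pearson intervals and conditional intervals of odds ratios. These cover only the number of regions, and the depth of the libraries is unknown. A logistic regression over all pooled regions and an exact sign-flip test over the replicates were added. The share comparison and the regression were tested on simulated independent regions with a large planted difference. That check does not cover rare words such as GCGCAGGG, neighbouring regions or small differences. Annotation of summits and the sign-flip test were checked on small cases with a known answer, and the remaining steps were not tested in this way. To leave out a replicate, the 1000 pooled regions of lowest mean rank in the other replicate lists were taken. The ordering thus changed along with the replicates, and no set by mean rank over all 3 was run. The pooled list itself was still the one called on all 3. The rule for naming genes took those of the 20 highest X regions, of every X cluster of 4 or more, and mdl-1 and mxl-3. It also took up to 4 X-linked genes of each of 19 lists. Genes at GCGCAGGG and tRNA regions, acly-1 and some of the nuclear hormone receptor genes are named beyond that rule. The members, gene lists and tests were chosen with earlier results of these data known. One gene symbol of the lists was not matched. Tools were SciPy 1.17.1, pandas 2.3.3, numpy 2.4.6 and, for figures, matplotlib 3.10.9, under Python 3.11.15.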

Additional observations from a re-analysis of the deposited data

How the results depend on the processing

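Of 105 recomputed values with a test that could change side, 69 kept their direction and side of the threshold, most of them differences that did not pass at first. Differences are X minus autosomes in percentage points, and the cause of each change was not tested. Sets without 1 replicate also changed the ordering, from pooled signal to mean rank. The higher GCGCAGGG share on X lost its call with the first 500 regions (3.70), the first 2000 (0.954) and the reproducible list (4.85). It also lost its call with 50 bp about the summit (1.40) and without any 1 replicate (0.879 to 1.57). The call was kept with 1 region per cluster (2.99) and with 200 bp about the summit (2.29). Without the mdl-1 cluster, an alternative chosen after seeing the data, it was also kept (2.06). The lower GAGAGAGA share lost its call with the first 500 (-6.84), the reproducible list (-6.23), 1 region per cluster (-6.06) and 200 bp about the summit (-5.75). It also lost its call without replicate 3, with a range without 1 replicate of -6.41 to -3.56. The call was kept with the first 2000 (-5.22), 50 bp about the summit (-4.29), without the mdl-1 cluster (-6.55) and without replicate 1 or 2. The promoter difference gained a call with the widest window (-11.2) and the intergenic one without replicate 2, with a range of 4.64 to 8.36.

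Differences that did not pass at first changed sign as follows. That of CACGTG was 1.31 with the first 2000 and -0.899 to 2.25 without 1 replicate. That of CACATG was -4.14 with the reproducible list, -0.599 with 1 region per cluster, -0.644 with 50 bp, -0.00111 without the mdl-1 cluster, an alternative chosen after seeing the data, and -4.55 to 2.85 without 1 replicate. With 1 region per cluster the promoter, intron and intergenic differences were 0.609, -1.19 and -0.747, and the intron difference was -0.0116 to 3.51 without 1 replicate. On the log2 scale of the fit over all regions, CACATG was -0.13 with the first 500, -0.0426 with the first 2000 and -0.74 to 0.14 without 1 replicate. In that fit promoter position was -0.14 with the first 500 and -0.0807 to 0.15 without 1 replicate, and intron position was -0.0245 with the first 2000 and -0.0769 to 0.25 without 1 replicate.

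The share on X was 24.5% to 26.1% without 1 replicate and 26.1% in the ce10 list, and the number of members in the first 1000 of all replicates was 32 and 45 with summits matched within 100 and 500 bp. Sequence and position shares in ce10 were not run, since no ce10 genome was used here. Depth is unknown, so reads behind a region that is low or unmatched in a replicate cannot be weighed, and the replicates number 3.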
